A study of Mus musculus with 10 samples.

Results

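The genes described here are 40 genes of DNA replication and mitosis, measured in mouse peritoneum among 21877 gene symbols. They were taken by name from a list of cell-cycle genes that was chosen with earlier results of these data known. All 40 were found in the deposited table. RNA was sequenced from the peritoneum of male C57BL/6 mice, either Mr1+/+ or Mr1-/-, injected into the peritoneal cavity for 6 weeks with PBS or with the same volume of 4.25% peritoneal dialysis (PD) fluid, a dialysis solution of the kind that draws water across the peritoneum by its glucose. Mr1 encodes an antigen-presenting molecule that shows vitamin B derivatives from microbes to MAIT cells (mucosal-associated invariant T cells). The labels give 3 libraries of Mr1+/+ with PBS, 3 of Mr1+/+ with PD fluid, 2 of Mr1-/- with PBS and 2 of Mr1-/- with PD fluid. They state neither the age of the mice, nor how the Mr1 allele was made, nor whether each library is 1 mouse, so the p-values rest on the spread between samples alone, and that spread may be technical.

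A cell that divides first licenses its replication origins. Cdc6 and Cdt1 load the Mcm2 to Mcm7 helicase onto DNA, and geminin (Gmnn) blocks Cdt1 from loading it again. Replication then needs the sliding clamp Pcna and a supply of deoxynucleotides from ribonucleotide reductase (Rrm1, Rrm2) and thymidylate synthase (Tyms). Cyclins with their kinases drive each transition, E2f1 is known for switching on replication genes and Foxm1 for switching on mitotic genes, and mitosis runs on the Polo and Aurora kinases, the spindle checkpoint and the kinesins and kinetochore proteins of the spindle. In a resting tissue such as peritoneum few cells divide, and transcripts of these genes mark the share that does.

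The count totals were 14145635 to 16335799 per library. Levels are in CPM, the usual counts-per-megaread unit, with library totals scaled by TMM, edgeR's correction for composition. Replicates 1 and 2 of Mr1+/+ PBS, and the pair of Mr1-/- PD fluid libraries, had a chi-square per gene of only 2.23 and 1.74, while the other pairs within groups had 18.6 to 118. Each near-identical pair was summed and counted as 1 sample, which left 2, 3, 2 and 1 samples for Mr1+/+ PBS, Mr1+/+ PD fluid, Mr1-/- PBS and Mr1-/- PD fluid. The knocked-out gene Mr1 had 324 to 524 counts where the label was Mr1+/+ and 29 to 39 where it was Mr1-/-. Markers of mesothelium, the lining cell of the peritoneum, were above 0 in every library and summed to 64.1 to 432 CPM over 8 genes. Mr1+/+ PBS replicate 3 stood apart with transcripts of intestinal epithelium (10 genes, 2017 CPM against 17.5 to 32.1 in the other libraries) and of pancreatic acinar cells (7 genes, 22280 CPM against 132.6 to 4491).

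All 40 genes passed the filter on low counts and none was at 0 in any library. Counts per gene and library ran from 12, for the kinesin Cenpe, to 2438, for the helicase subunit Mcm6. Per kilobase of exon, the highest mean levels over the 4 groups were those of Pcna (41.9 CPM per kilobase), Mcm6 (22.7) and Mcm3 (22.3). The lowest were those of 3 kinetochore and checkpoint genes, Cenpf (0.37 CPM per kilobase), Ttk (0.55) and Cenpe (0.78).

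Promoters of 6 of the genes are printed because 2 promoter elements occurred mostly in different roles. The sequences are from RefSeq (build GRCm38.p6, the assembly that mm10 names) and run 5′ to 3′ from 250 bases before the transcription start to 30 bases after it, or to 30 bases after the GENCODE start of the gene where that lies upstream. Capitals mark letters that match 1 of 3 motifs on either strand. These are the E2F motif (TTTCGCGC, TTTGGCGC, TTTCCCGC or TTTGCCGC), the cell cycle homology region or CHR (TTTGAA or TTCGAA), which is known from promoters of mitotic genes, and the CCAAT box (CCAAT). Plk1 (chr7:122159185-122159464, plus strand), Cenpa (chr5:30666636-30666806, plus strand), Rrm2 (chr12:24708004-24708270, plus strand) and Mcm5 (chr8:75109259-75109538, plus strand) are the 2 mitotic and 2 replication genes with the smallest p after PD fluid among those with a promoter in the table. Top2a (chr11:99024160-99024439, minus strand) and Mcm6 (chr1:128359676-128359955, minus strand) were added after the motif search because they hold the most CHR and E2F matches.
Mcm5: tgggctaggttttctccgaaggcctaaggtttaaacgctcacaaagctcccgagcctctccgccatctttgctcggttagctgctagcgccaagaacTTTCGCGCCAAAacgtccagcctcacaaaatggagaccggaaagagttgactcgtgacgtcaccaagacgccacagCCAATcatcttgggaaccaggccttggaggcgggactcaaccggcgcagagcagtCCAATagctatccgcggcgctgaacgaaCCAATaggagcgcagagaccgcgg
Mcm6: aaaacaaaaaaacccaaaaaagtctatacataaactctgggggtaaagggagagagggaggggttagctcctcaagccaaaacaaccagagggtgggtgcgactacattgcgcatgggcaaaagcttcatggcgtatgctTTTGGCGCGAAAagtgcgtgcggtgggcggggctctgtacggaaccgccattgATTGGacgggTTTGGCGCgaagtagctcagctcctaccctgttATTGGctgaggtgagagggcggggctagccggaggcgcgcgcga
Rrm2: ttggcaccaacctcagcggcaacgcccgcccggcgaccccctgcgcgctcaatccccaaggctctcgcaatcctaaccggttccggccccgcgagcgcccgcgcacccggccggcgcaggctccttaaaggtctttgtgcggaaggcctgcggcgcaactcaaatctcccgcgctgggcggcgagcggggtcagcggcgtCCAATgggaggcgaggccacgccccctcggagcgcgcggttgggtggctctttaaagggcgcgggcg
Plk1: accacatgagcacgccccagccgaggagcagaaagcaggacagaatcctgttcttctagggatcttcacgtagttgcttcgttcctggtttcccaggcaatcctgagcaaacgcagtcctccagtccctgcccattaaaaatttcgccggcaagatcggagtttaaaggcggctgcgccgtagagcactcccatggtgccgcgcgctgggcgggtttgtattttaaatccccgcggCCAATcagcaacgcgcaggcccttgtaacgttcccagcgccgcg
Cenpa: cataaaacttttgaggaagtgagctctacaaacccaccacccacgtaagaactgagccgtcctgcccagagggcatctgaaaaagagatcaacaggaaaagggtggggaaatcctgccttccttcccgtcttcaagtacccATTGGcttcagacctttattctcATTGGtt
Top2a: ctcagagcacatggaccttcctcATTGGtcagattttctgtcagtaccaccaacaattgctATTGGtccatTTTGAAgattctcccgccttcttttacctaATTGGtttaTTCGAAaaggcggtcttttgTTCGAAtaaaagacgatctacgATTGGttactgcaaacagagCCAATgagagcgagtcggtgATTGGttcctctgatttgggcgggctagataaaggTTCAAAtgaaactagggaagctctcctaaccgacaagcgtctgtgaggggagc
The Mcm5 stretch holds 2 overlapping E2F matches on opposite strands and 3 CCAAT boxes. The Mcm6 stretch holds 3 E2F matches, of which 2 overlap on opposite strands, and 2 CCAAT boxes. The Top2a stretch holds 4 CHR matches and 6 CCAAT boxes. Plk1 and Cenpa each have 1 CHR match in the 300 bases searched, downstream of the bases printed, and Rrm2 has 1 CCAAT box and neither other motif.

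RefSeq promoters of 300 bases were found for 33 of the 40 genes, in 34 windows, against 32851 windows over all genes. The E2F letters occurred in 7 of the 34 windows (20.6%, against 2.26% of all windows). They were in 6 of the 12 windows of replication genes and in 1 of the 22 windows of cyclin, kinase and spindle genes (4.55%), which was that of Cdk1. The CHR letters occurred in 18 of the 34 windows (52.9%, against 19.2% of all). They were in 16 of the 22 cyclin, kinase and spindle windows (72.7%) and in 2 of the 12 replication windows (16.7%). A CCAAT box stood in 27 of the 34 windows (79.4%, against 37.4%), and CHR and CCAAT together in 18 (52.9%, against 7.52%). In the narrower window from 100 bases before to 50 after the start, the direction was the same, with E2F in 11.8% against 1.27%, CHR in 17 of the 34 windows against 8.59% and CCAAT in 70.6% against 23.4%. These are matches of letters and not measured binding, and they were not compared with the fold changes.

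The first question was how PD fluid changed these genes in mice with Mr1. After PD fluid, 20 of the 40 genes fell in the Mr1+/+ peritoneum and none rose. A gene was called when its p in edgeR's quasi-likelihood test, adjusted over all 15385 tested genes by the Benjamini-Hochberg method, was under 0.05. By that rule 6.37% of all tested genes were lower and 8.49% higher. The median log2 fold change of the 40 genes was -0.92 (0 means no difference, and -1 a level divided by 2), against -0.06 over all tested genes. The fold change was below 0 for 39 of the 40 genes, against 53.8% of all tested genes, and the exception was E2f1. At an unadjusted p under 0.05, 33 of the 40 were lower (17.5% of all). In 36 of the 40 every PD fluid sample was below every PBS sample, against 25.6% of all tested genes, and the 4 whose groups overlapped were Gmnn, Mcm3, Pcna and E2f1. In tissue RNA, fewer dividing cells and less RNA per cell cannot be told apart.

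The calls rested on small groups. Without Mr1+/+ PD fluid replicate 3 none of the 40 genes passed (26 at an unadjusted p under 0.05, smallest adjusted p = 0.0576, and 0 genes called in all). Without Mr1+/+ PD fluid replicate 2 only Plk1, Cenpa and Top2a passed, with 339 genes called in all. The median log2 fold change was -0.91 in both cases. Leaving out the summed Mr1+/+ PBS sample, a choice made after seeing the data, left 6 genes (Rrm2, Ccna2, Plk1, Ube2c, Cenpa and Top2a) and a median of -0.70, with 1525 genes called in all (9.93%), 550 higher and 975 lower. Leaving out Mr1+/+ PBS replicate 3, with its intestinal and pancreatic transcripts, gave 27 genes and a median of -1.11, with 18.2% of all genes called, and 19 of the 20 were among the 27, all but Mki67. Both of these fits leave 1 Mr1+/+ PBS sample, which is assumed to vary like the other groups.

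**Figure D1:**
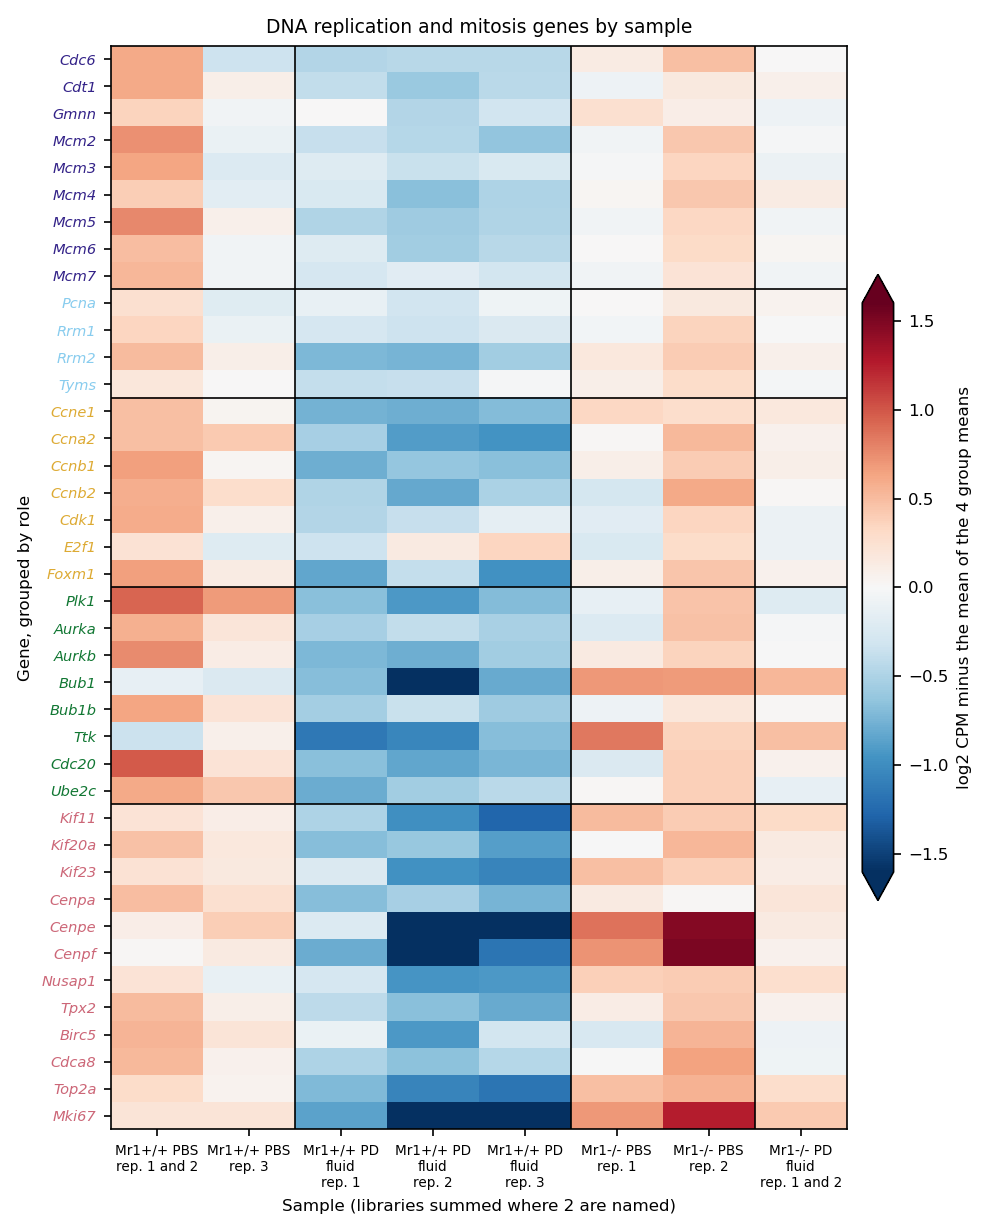
Level of each of the 40 genes (rows, grouped and coloured by role) in each of the 8 samples (columns, in 4 groups), as log2 CPM minus the mean of the gene's 4 group means; red is higher, blue is lower, and the darkest colours include values beyond the scale. The 3 Mr1+/+ PD fluid samples are blue for nearly every gene. The exceptions are E2f1, above 0 in replicates 2 and 3, and Gmnn, at 0.0075 in replicate 1.

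The summed level of the 40 genes was 1784, 1775 and 1280 CPM in the Mr1+/+ PBS libraries and 950.1, 850.2 and 876.7 CPM with PD fluid in the same genotype. The Mr1-/- libraries had 1335 and 1662 CPM with PBS and 1311 and 1306 CPM with PD fluid. The Mr1+/+ PD fluid libraries were therefore the 3 lowest of the 10, with no overlap with any other group, and the Mr1-/- PD fluid libraries lay at the lower end of the PBS libraries. As a median over the 40 genes of log2 CPM relative to the gene's mean over groups, the 3 Mr1+/+ PD fluid samples stood at -0.49, -0.64 and -0.56. The other 5 samples ranged from 0.03 (Mr1-/- PBS replicate 1) to 0.50 (the summed Mr1+/+ PBS sample).

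Among the 9 genes of origin licensing and the Mcm helicase, 2 fell after PD fluid in Mr1+/+ (6.37% of all tested genes). The median log2 fold change of the 9 was -0.64 with a range from -0.98 to -0.42. Mcm5, a helicase subunit whose promoter holds the paired E2F match printed above (ENSMUSG00000005410.6, chr8:75109569-75128439, plus strand), stood at 122, 112 and 72.2 CPM in the Mr1+/+ PBS libraries, 49.1, 46.0 and 48.8 in Mr1+/+ PD fluid, 65.7 and 85.9 in Mr1-/- PBS and 68.5 and 63.4 in Mr1-/- PD fluid. All 3 PD fluid libraries of Mr1+/+ lay below every other library. The log2 fold change was -0.98 (SE 0.21, adjusted p = 0.0242). The licensing factor Cdt1 (ENSMUSG00000006585.3, chr8:122568015-122573554, plus strand) had 58.9, 66.8 and 44.1 CPM under PBS and 31.6, 27.3 and 30.7 under PD fluid in Mr1+/+, and 39.0 and 46.0 under PBS and 45.1 and 42.6 under PD fluid in Mr1-/-. It was again lowest in the 3 Mr1+/+ PD fluid libraries, with a log2 fold change of -0.84 (SE 0.18, adjusted p = 0.0246).

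Mcm2 had 111, 105 and 60.4 CPM under PBS and 50.03, 47.0 and 42.0 under PD fluid in Mr1+/+, and 62.2 and 87.8 under PBS and 66.2 and 61.8 under PD fluid in Mr1-/-. Its groups did not overlap in Mr1+/+, but replicate 3 of Mr1+/+ PBS was well below the other 2 of its group, and its log2 fold change of -0.86 (SE 0.25, adjusted p = 0.0568) missed the threshold. Gmnn, the inhibitor of licensing, had the largest p of these genes. It had 11.4, 9.02 and 7.65 CPM under PBS and 7.998, 5.70 and 6.42 under PD fluid in Mr1+/+, and 9.52 and 8.59 under PBS and 7.43 and 7.66 under PD fluid in Mr1-/-, so that Mr1+/+ PBS replicate 3 fell between the PD fluid libraries, with a log2 fold change of -0.42 (SE 0.25, adjusted p = 0.277). The other 5 did not pass, with log2 fold changes of -0.68 for Cdc6, -0.64 for Mcm6, -0.60 for Mcm4, -0.54 for Mcm3 and -0.52 for Mcm7. Exons of Cops6 and Ap4m1 overlap Mcm7 on the opposite strand, and the protocols name no step that keeps the strand, so reads of such pairs may be mixed.

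Of the 4 genes of the replication fork and nucleotide supply, Rrm2 fell (6.37% of all tested genes) and 3 did not pass, with a median log2 fold change of -0.38. Rrm2, the small subunit of ribonucleotide reductase whose level limits the enzyme outside S phase (ENSMUSG00000020649.11, chr12:24708241-24714146, plus strand), stood at 44.7, 44.8 and 33.5 CPM in the Mr1+/+ PBS libraries, 19.0, 18.7 and 21.3 in Mr1+/+ PD fluid, 35.1 and 41.4 in Mr1-/- PBS and 34.7 and 31.7 in Mr1-/- PD fluid. The Mr1+/+ PD fluid libraries were lowest without overlap, and the log2 fold change was -0.99 (SE 0.18, adjusted p = 0.0158). Its partner Rrm1, the large subunit, had 97.8, 101.1 and 72.4 CPM under PBS and 64.8, 62.3 and 66.6 under PD fluid in Mr1+/+, and 75.9 and 100.2 under PBS and 80.2 and 76.1 under PD fluid in Mr1-/-. The same 3 libraries were lowest, and the log2 fold change of -0.41 (SE 0.18, adjusted p = 0.145) did not pass.

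Tyms, which makes thymidylate, stood at 13.5, 13.1 and 11.8 CPM in the Mr1+/+ PBS libraries, 8.99, 9.12 and 11.6 in Mr1+/+ PD fluid, 12.5 and 14.4 in Mr1-/- PBS and 11.5 and 11.6 in Mr1-/- PD fluid. The highest PD fluid library of Mr1+/+ was just under the lowest PBS library, and the log2 fold change was -0.34 (SE 0.21, adjusted p = 0.277). Pcna (ENSMUSG00000027342.14, chr2:132249162-132253314, minus strand), which also serves DNA repair, had the fold change nearest to 0 of this role. Its values were 122, 117 and 87.2 CPM under PBS and 92.4, 81.0 and 95.1 under PD fluid in Mr1+/+, and 100.5 and 111 under PBS and 100.7 and 107 under PD fluid in Mr1-/-, the PBS and PD fluid libraries of Mr1+/+ overlapped, and the log2 fold change was -0.21 (SE 0.17, adjusted p = 0.405). Without the summed Mr1+/+ PBS sample it was 0.06. The role thus spanned fold changes from -0.99 for Rrm2 to -0.21 for Pcna.

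**Figure D2:**
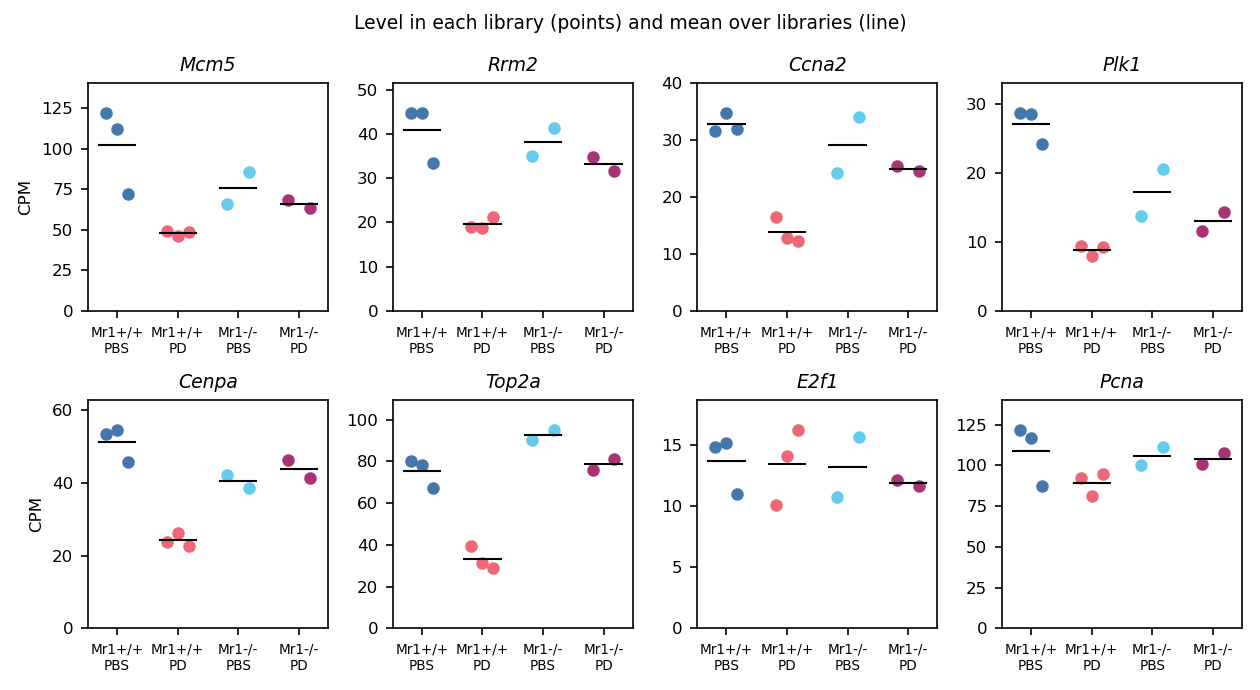
CPM (linear axes from 0) of 8 of the 40 genes in each of the 10 libraries, with points for libraries and a line for the mean over the libraries of each group. Mcm5, Rrm2, Ccna2, Plk1, Cenpa and Top2a have their 3 lowest values in the Mr1+/+ PD fluid libraries, while the groups overlap for E2f1 and Pcna.

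Among the 7 cyclins, Cdk1 and transcription factors, 5 fell (6.37% of all tested genes), and the median log2 fold change was -1.04. Ccna2, the cyclin of S phase and G2 (ENSMUSG00000027715.9, chr3:36564865-36572150, minus strand), stood at 31.5, 34.8 and 31.9 CPM in the Mr1+/+ PBS libraries, 16.5, 12.8 and 12.3 in Mr1+/+ PD fluid, 24.1 and 34.1 in Mr1-/- PBS and 25.4 and 24.6 in Mr1-/- PD fluid. The Mr1+/+ PD fluid libraries were lowest, and unlike for Mcm5 and Mcm2 the third of the Mr1+/+ PBS replicates was level with the other 2 of its group. The log2 fold change was -1.23 (SE 0.21, adjusted p = 0.0135). Exons of Exosc9 overlap Ccna2 on the opposite strand, and Exosc9 itself had a log2 fold change of -0.01 (SE 0.20, adjusted p = 0.9716).

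Ccne1, the cyclin of the step from G1 into S phase (ENSMUSG00000002068.16, chr7:38097984-38107534, minus strand), had 24.0, 21.5 and 16.6 CPM under PBS and 9.55, 9.39 and 9.98 under PD fluid in Mr1+/+, and 20.5 and 19.7 under PBS and 19.3 and 17.3 under PD fluid in Mr1-/-. The 3 Mr1+/+ PD fluid libraries lay close together and below all others, with a log2 fold change of -1.03 (SE 0.19, adjusted p = 0.0169). Ccnb1, the main mitotic cyclin (ENSMUSG00000041431.16, chr13:100778650-100786570, minus strand), had 25.0, 24.2 and 15.8 CPM under PBS and 8.99, 10.1 and 9.72 under PD fluid in Mr1+/+, and 16.5 and 20.6 under PBS and 16.9 and 16.2 under PD fluid in Mr1-/-. It too was lowest in those libraries without overlap, at -1.08 (SE 0.23, adjusted p = 0.0232). The second B-type cyclin Ccnb2 fell by 1.04 on the log2 scale (adjusted p = 0.0443), and Foxm1 fell by 1.13 (adjusted p = 0.024). Exons of Tex52 and Gm44596 overlap Foxm1 on the same strand. Cdk1, the kinase that the B-type cyclins activate, had a log2 fold change of -0.69 (SE 0.25, adjusted p = 0.0934).

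E2f1 was the 1 gene of the 40 with a fold change above 0. It stood at 14.9, 15.2 and 11.0 CPM in the Mr1+/+ PBS libraries, 10.1, 14.09 and 16.26 in Mr1+/+ PD fluid, 10.8 and 15.7 in Mr1-/- PBS and 12.2 and 11.7 in Mr1-/- PD fluid, and the Mr1+/+ groups overlapped over most of their range. The log2 fold change was 0.05 (SE 0.28, adjusted p = 0.923). Its sign depended on the fit: it was -0.02 with the 10 libraries as separate samples and -0.16 without Mr1+/+ PBS replicate 3. Its mean was 13.0 ± 2.84 CPM (SD, n = 2) under PBS and 13.5 ± 3.12 CPM (SD, n = 3) under PD fluid, so that no shift was detectable beyond the spread between samples.

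Of the 8 mitotic kinases, checkpoint genes and anaphase-promoting complex genes, 6 fell (6.37% of all tested genes), and the median log2 fold change was -1.03. Plk1, the Polo kinase that drives entry into mitosis and spindle assembly (ENSMUSG00000030867.7, chr7:122159439-122169873, plus strand), had the smallest p of the 40 genes, at rank 93 of the 15385 tested. It stood at 28.7, 28.5 and 24.2 CPM in the Mr1+/+ PBS libraries, 9.36, 7.92 and 9.27 in Mr1+/+ PD fluid, 13.7 and 20.6 in Mr1-/- PBS and 11.6 and 14.4 in Mr1-/- PD fluid. The Mr1+/+ PD fluid libraries were lowest, the Mr1-/- PD fluid libraries came next together with Mr1-/- PBS replicate 1, and the Mr1+/+ PBS libraries were highest. The log2 fold change in Mr1+/+ was -1.58 (SE 0.22, adjusted p = 0.0124). Its mean was 26.4 ± 3.10 CPM under PBS (SD, n = 2), against 8.85 ± 0.808 under PD fluid (SD, n = 3).

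Ube2c, the ubiquitin-conjugating enzyme of the anaphase-promoting complex (ENSMUSG00000001403.13, chr2:164769898-164778822, plus strand), had 24.6, 25.5 and 22.1 CPM under PBS and 9.42, 11.1 and 12.1 under PD fluid in Mr1+/+, and 16.6 and 21.4 under PBS and 14.05 and 15.9 under PD fluid in Mr1-/-. The Mr1+/+ PD fluid libraries were the 3 lowest, with a log2 fold change of -1.12 (SE 0.20, adjusted p = 0.0157). Exons of Tnnc2, a skeletal muscle troponin gene that did not pass the filter on low counts, overlap Ube2c on the opposite strand. Bub1b, the checkpoint protein BubR1 (ENSMUSG00000040084.9, chr2:118598211-118641591, plus strand), had 55.1, 58.9 and 42.8 CPM under PBS and 25.1, 28.5 and 24.7 under PD fluid in Mr1+/+, and 34.6 and 41.7 under PBS and 36.8 and 37.4 under PD fluid in Mr1-/-. It too was lowest in those 3 libraries, at -0.94 (SE 0.18, adjusted p = 0.0177). Cdc20, the activator that turns the complex on at anaphase, fell by 1.40 (SE 0.27, adjusted p = 0.0182). Its antisense neighbour Elovl1 had a log2 fold change of 0.06 (SE 0.15, adjusted p = 0.8188).

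The Aurora kinases fell as well, Aurkb by 1.16 (adjusted p = 0.0185) and Aurka by 0.88 (adjusted p = 0.0495), the latter just inside the threshold. The 2 that did not pass were the checkpoint kinases Bub1, at -0.83 (SE 0.34, adjusted p = 0.127), and Ttk. Ttk, with the lowest level per kilobase of the role, stood at 1.75, 2.06 and 2.60 CPM in the Mr1+/+ PBS libraries, 1.05, 1.14 and 1.49 in Mr1+/+ PD fluid, 4.49 and 3.18 in Mr1-/- PBS and 3.59 and 3.35 in Mr1-/- PD fluid, and its log2 fold change was -0.86 (SE 0.39, adjusted p = 0.162). Its Mr1+/+ groups did not overlap, but both were below both Mr1-/- groups.

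Among the 12 genes of the spindle, kinetochore and chromosomes, 6 fell (6.37% of all tested genes), and the median log2 fold change was -1.05. Cenpa, the histone variant that marks centromeres (ENSMUSG00000029177.9, chr5:30666777-30674830, plus strand), stood at 53.5, 54.5 and 45.8 CPM in the Mr1+/+ PBS libraries, 23.7, 26.3 and 22.7 in Mr1+/+ PD fluid, 42.2 and 38.6 in Mr1-/- PBS and 46.3 and 41.3 in Mr1-/- PD fluid. The 3 Mr1+/+ PD fluid libraries were lowest, and within Mr1-/- the PD fluid and PBS libraries overlapped. The log2 fold change in Mr1+/+ was -1.04 (SE 0.15, adjusted p = 0.0124), rank 110 of all tested genes. Top2a, the topoisomerase that untangles sister chromosomes and whose promoter holds the CHR cluster printed above (ENSMUSG00000020914.17, chr11:98992943-99024189, minus strand), stood at 80.2, 78.0 and 67.4 CPM in the Mr1+/+ PBS libraries, 39.4, 31.1 and 28.7 in Mr1+/+ PD fluid, 90.4 and 95.0 in Mr1-/- PBS and 76.0 and 81.3 in Mr1-/- PD fluid. It had a log2 fold change of -1.15 (SE 0.17, adjusted p = 0.0124), rank 124, and unlike Plk1 its highest libraries were those of Mr1-/- PBS.

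Tpx2, which activates Aurora A on the spindle (ENSMUSG00000027469.16, chr2:152847964-152895321, plus strand), had 37.2, 34.1 and 26.7 CPM under PBS and 18.7, 15.7 and 14.3 under PD fluid in Mr1+/+, and 27.1 and 34.0 under PBS and 24.8 and 27.8 under PD fluid in Mr1-/-, again lowest in Mr1+/+ PD fluid, with a log2 fold change of -0.94 (SE 0.20, adjusted p = 0.0235). The kinesins Kif11, which pushes the spindle poles apart, and Kif20a, which acts in cytokinesis, fell by 1.05 and 1.06 (adjusted p = 0.0265 and 0.0243). Cdc23, whose exons overlap Kif20a on the opposite strand, had a log2 fold change of -0.10 (SE 0.16, adjusted p = 0.6751). The proliferation marker Mki67 fell by 1.69 (SE 0.38, adjusted p = 0.034), the largest fall of the 40 genes in size. It stood at 50.8, 53.6 and 51.8 CPM in the Mr1+/+ PBS libraries, 24.9, 13.95 and 9.46 in Mr1+/+ PD fluid, 72.7 and 108 in Mr1-/- PBS and 60.5 and 59.8 in Mr1-/- PD fluid, so that the Mr1+/+ PBS libraries were nearly equal, the PD fluid libraries were all lower, and Mr1-/- PBS was highest.

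Cenpe, the kinetochore kinesin, had the largest p of the role in spite of a log2 fold change of -1.50 (SE 0.65, adjusted p = 0.156). Its values were 5.82, 5.57 and 7.02 CPM under PBS and 4.53, 1.41 and 0.778 under PD fluid in Mr1+/+, and 9.73 and 14.9 under PBS and 6.31 and 5.35 under PD fluid in Mr1-/-. The groups did not overlap in Mr1+/+, but PD fluid replicate 1 was well above the other PD fluid libraries, which held few counts. Just outside the threshold were Kif23 at -0.90 (adjusted p = 0.0506), Cdca8 at -0.85 (0.0516) and Cenpf at -1.33 (0.0524). Nusap1 and Birc5 (survivin) had log2 fold changes of -0.74 and -0.79 with adjusted p = 0.0858 and 0.124. Exons of Oip5 overlap Nusap1 and those of 9930104L06Rik overlap Cdca8, both on the opposite strand.

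**Figure D3:**
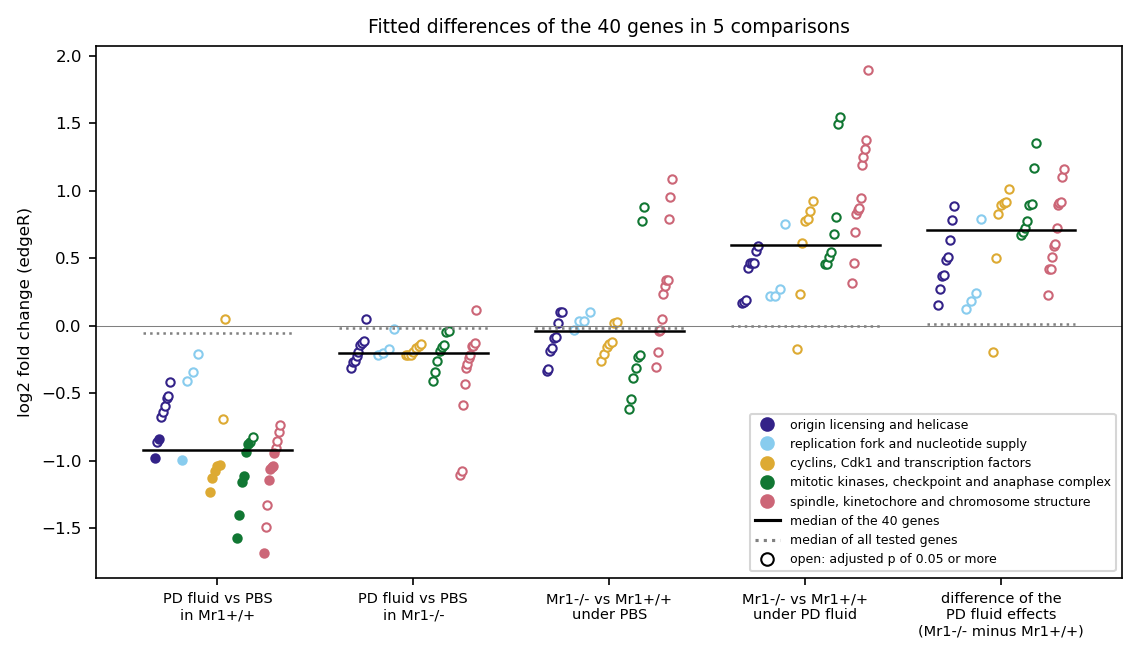
Log2 fold change of each of the 40 genes (points, coloured by role) in the 5 comparisons, with the median of the 40 genes (solid line) and of all tested genes (dotted line). Filled points have an adjusted p under 0.05: there are 20, all below 0 and all in the comparison of PD fluid with PBS in Mr1+/+.

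Other genes of the cell cycle, in lists outside the 40 genes, were read from the same fit. It called 6.37% of all tested genes lower and 8.49% higher after PD fluid in Mr1+/+. Of 31 tested further replication genes (of 32 listed), 6 fell and none rose after PD fluid in Mr1+/+, and their median log2 fold change was -0.57. Among those that fell were the polymerase epsilon subunit Pole at -1.26 (SE 0.26, adjusted p = 0.0215), the thymidine kinase Tk1 at -0.85 (SE 0.17, adjusted p = 0.0209), the primase-polymerase subunit Pola2 at -0.77 (SE 0.16, adjusted p = 0.023) and the DNA ligase Lig1 at -0.72 (SE 0.17, adjusted p = 0.0317). Of 42 further mitosis genes, 16 fell and none rose, with a median of -0.83. Among them were the spindle pole gene Aspm at -1.85 (SE 0.31, adjusted p = 0.014), separase (Espl1) at -0.95 (SE 0.19, adjusted p = 0.0197), Troap at -1.53 (SE 0.32, adjusted p = 0.0224) and the centrosomal kinase Nek2 at -1.45 (SE 0.31, adjusted p = 0.0226). Anln and Pttg1 were the 2 of this list above 0, at 0.46 and 0.25, and neither passed.

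Regulators of the cycle were read in 3 further lists. After PD fluid in Mr1+/+, 6.37% of all tested genes fell and 8.49% rose. Of 13 other regulators of G1 and of mitotic entry, among them D-type cyclins, their kinases, Cdc25 phosphatases, Wee1, Myc and Skp2, 3 fell, and the median was -0.26. They were Cdc25b, a phosphatase known for entry into mitosis, at -0.92 (SE 0.17, adjusted p = 0.0181), Cdc25a at -0.74 (SE 0.18, adjusted p = 0.0331) and Cdk2 at -0.50 (SE 0.14, adjusted p = 0.0494). Of 16 tested factors of the RB, E2F and DREAM families (of 17 listed), 3 fell, and the median was -0.28. These were E2f2 at -1.18 (SE 0.19, adjusted p = 0.013), the pocket protein p107 (Rbl1) at -0.89 (SE 0.18, adjusted p = 0.0198) and Mybl2, the B-Myb that partners the MuvB complex at mitotic promoters, at -1.42 (SE 0.30, adjusted p = 0.023). Of 8 inhibitors of cyclin-dependent kinases, 2 rose and none fell: p57 (Cdkn1c) at 1.49 (SE 0.37, adjusted p = 0.0343) and p18 (Cdkn2c) at 1.42 (SE 0.23, adjusted p = 0.013). The list was mixed, with 5 above 0 and 3 below, a median of 0.71 and a range from -0.68 to 1.49. In the other 4 comparisons no gene of these 5 lists passed, where edgeR called 0.0% to 0.013% of all tested genes.

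Markers of other cells moved in the same comparison, in which 6.37% of all tested genes fell and 8.49% rose. Of 12 B cell markers, 11 fell after PD fluid in Mr1+/+, and their summed level was 3982, 3929 and 2584 CPM in the PBS libraries and 1686, 1517 and 1474 CPM in the PD fluid libraries. In Mr1-/- it was 3070 and 2791 CPM under PBS and 3132 and 3126 CPM under PD fluid. Of 10 tested T cell markers (of 11 listed) 3 fell, and their sum was 1041 to 1586 CPM under PBS and 665.6 to 993 CPM under PD fluid in Mr1+/+. Germinal centre B cell markers summed to 127 to 218.8 CPM under PBS and 147.9 to 157.8 CPM under PD fluid in Mr1+/+, and 0 of 7 passed. Their median log2 fold change was -0.63, with 5 below 0 and 2 above. Of 7 plasma cell markers none passed, and they summed to 843.8 to 1040 CPM and 914.6 to 1095 CPM. The median log2 fold change of these 7 was -0.44, with 6 below 0 and 1 above. Markers of immature lymphocytes were at or near 0 throughout, with 6 genes summing to 2.45 to 8.12 CPM and Rag2, Ptcra, Vpreb1 or Igll1 at 0 in 9 of the 10 libraries.

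In the opposite direction, 7 of 8 adipocyte markers rose, and their sum went from 4502 to 5408 CPM under PBS to 13590 to 19540 CPM under PD fluid in Mr1+/+. All 7 fibroblast markers rose (868.7 to 1002 CPM, then 2389 to 2575 CPM), as did 5 of 8 macrophage markers (592.7 to 792.5 CPM, then 1043 to 1279 CPM) and 3 of 6 endothelial markers. Of 5 tested erythroid markers (of 7 listed) 3 rose (median log2 fold change 2.44), and the list summed to 17.4 to 35.9 CPM under PBS and 84.9 to 239.6 CPM under PD fluid. In Mr1-/-, adipocyte markers summed to 6413 to 9008 CPM under PBS and 7640 to 7723 CPM under PD fluid. The libraries in which the 40 genes were lowest were thus also those with the lowest B cell sums and the highest adipocyte and fibroblast sums. The part of these cells in the result was not tested.

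**Figure D4:**
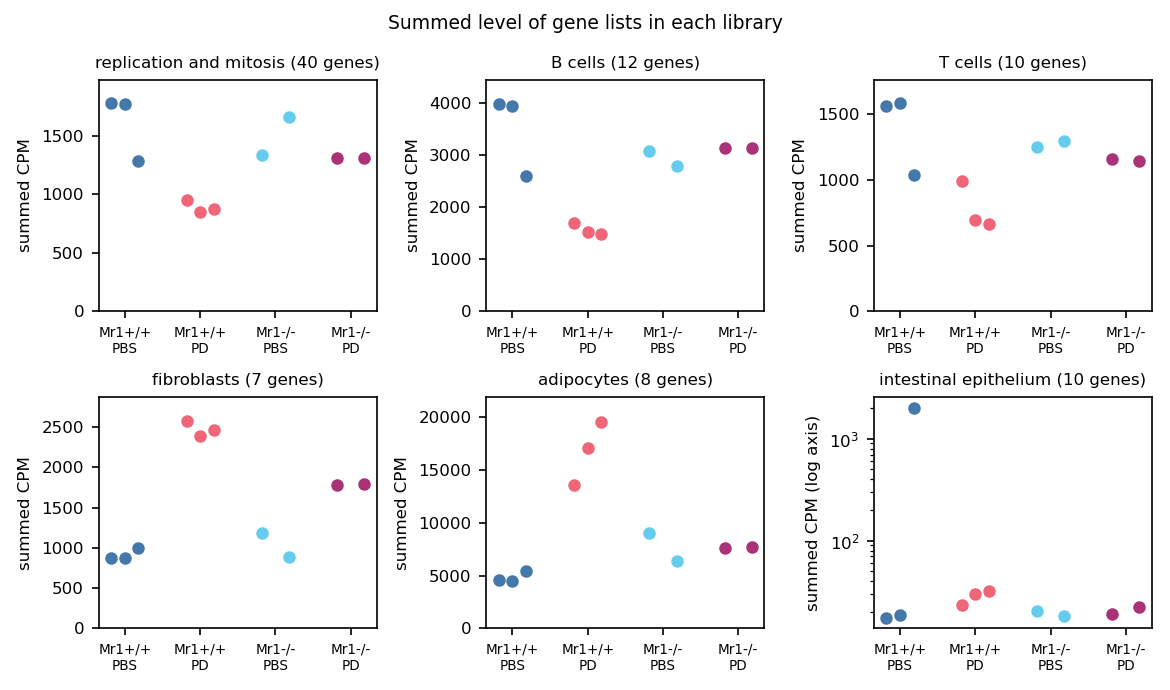
Summed CPM of the 40 genes and of 5 marker lists in each of the 10 libraries (points, in 4 groups), on linear axes from 0 except for intestinal epithelium, which has a log axis. The 40 genes and the B cell markers are both lowest in the Mr1+/+ PD fluid libraries (850.2 to 950.1 and 1474 to 1686 CPM), where fibroblast and adipocyte markers are highest, and intestinal markers are high in 1 Mr1+/+ PBS library.

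The second question was whether the same treatment moved these genes without Mr1. In Mr1-/- none of the 40 genes passed, and edgeR called 0.0% of all tested genes in this comparison of 1 PD fluid sample with 2 PBS samples. None of the 40 had an unadjusted p under 0.05 (231 genes, or 1.5% of all), and DESeq2 called none of them. The median log2 fold change was -0.20, against -0.015 over all tested genes, and it was below 0 for 38 of the 40 genes (52.9% of all). In 21 of the 40 the PD fluid sample lay below both PBS samples (27.9% of all), and in 1, Cenpa, above both (28.7% of all). The size depended on which PBS library was kept. Without Mr1-/- PBS replicate 1 the median was -0.36, and without replicate 2 it was -0.04, with 21 genes below 0.

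Single genes showed how wide the error was here. Plk1 had a log2 fold change of -0.41 (SE 0.30), Top2a -0.24 (SE 0.23), Mcm5 -0.20 (SE 0.29) and Cenpa 0.12 (SE 0.20). The lowest were Cenpf at -1.11 (SE 0.53) and Cenpe at -1.08 (SE 0.90), both from high levels in Mr1-/- PBS. Cdt1 and Cenpa were the 2 genes above 0. A p above the threshold does not show that PD fluid had no effect.

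The difference between the PD fluid effects of the genotypes was tested itself, as an interaction. None of the 40 genes passed (0.0% of all tested genes called), while 14 were higher at an unadjusted p under 0.05 (6.08% of all) and none was lower (7.16% of all). DESeq2 called 1 of the 40, Cenpa, and 472 genes in all (3.07%). Since it gave no adjusted p to 2387 genes here, the share among the others was above 3.07%. The interaction was above 0 for 39 of the 40 genes, against 50.8% of all tested genes, and its median was 0.71 against 0.01. The smallest p was that of Cenpa, at 1.16 (SE 0.25, adjusted p = 0.266), followed by Top2a at 0.91 (SE 0.28, adjusted p = 0.292) and Plk1 at 1.17 (SE 0.36, adjusted p = 0.294). Cdc20 was highest in size, at 1.35 (SE 0.44, adjusted p = 0.307), and E2f1 alone was below 0, at -0.19 (SE 0.47). In edgeR on the 8 samples, 20 genes thus fell in Mr1+/+ and none passed in Mr1-/-, while no gene passed the test of the difference itself. With the 10 libraries as separate samples, 9 of the 40 passed that test (10.1% of all tested genes). That fit counts the libraries of each near-identical pair as separate samples, so its error may be too small.

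By role, the median interaction was 0.48 for licensing and helicase genes, 0.21 for the replication fork and nucleotide supply, 0.90 for cyclins and transcription factors, 0.83 for mitotic kinases and checkpoint genes, and 0.67 for the spindle and kinetochore. The interaction shares its Mr1+/+ samples with the first comparison.

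Under PBS, the genes had no common direction between the genotypes. None of the 40 genes passed, where edgeR called 0.013% of all tested genes, and the median log2 fold change of Mr1-/- against Mr1+/+ was -0.04, with 18 genes above 0 and 22 below (51.8% of all tested genes below). At an unadjusted p under 0.05 there were 3 (8.64% of all): Cenpf at 1.09 (SE 0.42), Bub1 at 0.88 (SE 0.37) and Plk1 at -0.62 (SE 0.24), all with adjusted p = 0.566. DESeq2 called none of the 40. Both Mr1-/- PBS samples lay above both Mr1+/+ PBS samples for 9 genes (20.5% of all tested genes), namely Bub1, Ttk, Kif11, Kif23, Cenpe, Cenpf, Nusap1, Top2a and Mki67. They lay below for 4 (18.1% of all), Plk1, Bub1b, Ube2c and Cenpa.

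The genotype values under PBS varied with base composition. Across the 40 genes, Spearman's rho between the log2 fold change of genotype under PBS and the GC content of the longest transcript was -0.74, and that with transcript length 0.47. The points share the same 4 samples, so these are descriptions. Over the 15134 tested genes with an annotation (98.4%), the correlation with GC content was -0.38 and that with length 0.10. The correlation with GC content was thus not limited to the 40 genes. The 10 genes of lowest GC content (41.0% to 45.3%), among them Bub1, Cenpe, Ttk and Cenpf, had a median log2 fold change of 0.34. The 10 of highest GC content (52.5% to 58.3%), among them Plk1, Cdc20, Cdt1 and E2f1, had a median of -0.20. For PD fluid in Mr1+/+ rho was -0.01 across the 40 genes and -0.01 over all tested genes, and the medians of the same 10 and 10 genes were -0.96 and -1.07. The part of base composition in the genotype values was not tested further.

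**Figure D5:**
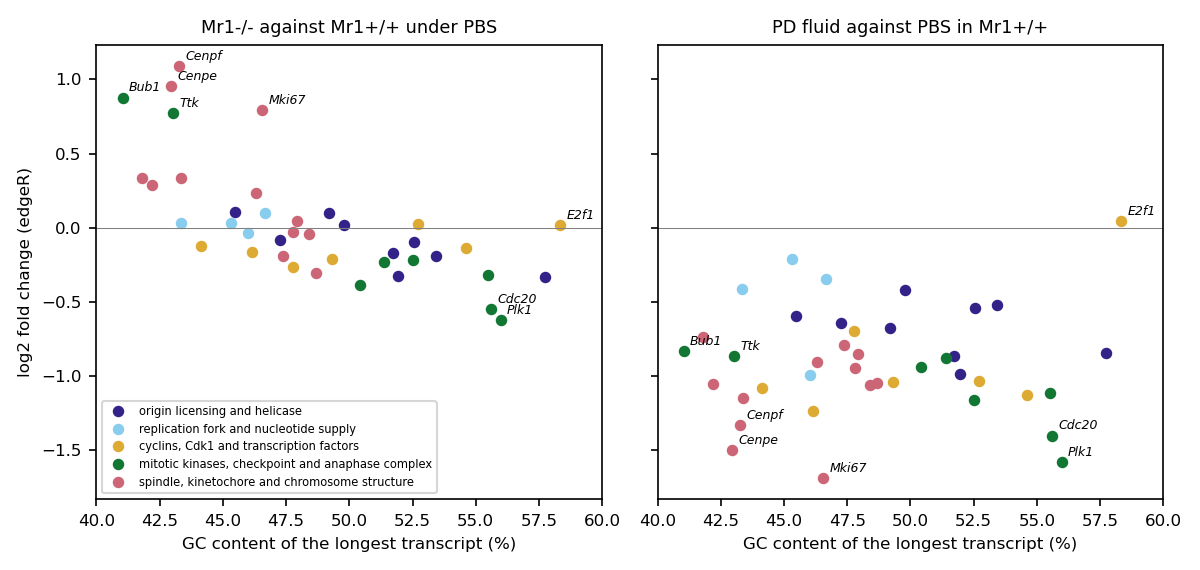
Log2 fold change of each of the 40 genes (points, coloured by role) against the GC content of its longest transcript in percent, for genotype under PBS (left) and for PD fluid in Mr1+/+ (right). On the left the genes of low GC content, such as Cenpf, Bub1 and Ttk, lie above 0 and Plk1 and Cdc20 below it (rho -0.74); on the right there is no such slope (rho -0.01).

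Under PD fluid, 39 of the 40 genes had fold changes above 0 for Mr1-/- against Mr1+/+, and how many passed depended on the fit. None of the 40 passed in edgeR on the 8 samples (0.013% of all tested genes), while 20 were higher at an unadjusted p under 0.05 (10.2% of all) and none was lower (8.85% of all). DESeq2 called 5, Ccne1, Kif11, Cenpa, Top2a and Mki67 (6.7% of all tested genes). It gave no adjusted p to 5369 of the 15385 tested genes, so the share among the others was above 6.7%. With only the groups compared, edgeR called Cenpa and Top2a (3.83% of all), and with 10 separate libraries it called 20 (22.9% of all). The median log2 fold change was 0.60, against 0.00 over all tested genes, and 1 of the 40 was below 0 (49.7% of all), E2f1. The Mr1-/- sample lay above all 3 Mr1+/+ samples for 37 genes (36.0% of all), the exceptions being Gmnn, Tyms and E2f1. Since 1 sample stands against 3, its error is taken from the other groups. The fit with 10 separate libraries counts those of each near-identical pair as separate samples, so its error may be too small.

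Top2a had the smallest p, at 1.25 (SE 0.20, unadjusted p = 0.00022, adjusted p = 0.145), rank 14 of all tested genes. Mki67 was highest in size at 1.90 (SE 0.45, adjusted p = 0.149), followed by Bub1 at 1.55 (SE 0.40, adjusted p = 0.149) and Ttk at 1.50 (SE 0.46, adjusted p = 0.171), all 3 with low levels in Mr1+/+ PD fluid. Cenpa was at 0.85 (SE 0.18, adjusted p = 0.145) and Kif11 at 1.19 (SE 0.28, adjusted p = 0.145). Under PBS, the genotype log2 fold changes of Mki67, Bub1 and Ttk were already 0.79 (SE 0.42), 0.88 (SE 0.37) and 0.77 (SE 0.43), and none passed. Under PD fluid, licensing genes were lower in size, from 0.17 for Gmnn to 0.59 for Mcm4. The correlation with GC content was -0.48 across the 40 genes and -0.21 over all tested genes in this comparison, with medians of 1.22 for the 10 genes of lowest GC content and 0.55 for the 10 of highest. This comparison and the first share the Mr1+/+ PD fluid samples.

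In this comparison too, markers of other cells differed between the groups. The B cell sum was 3132 and 3126 CPM in Mr1-/- against 1474 to 1686 CPM in Mr1+/+, with all 12 B cell markers above 0 and none passing. The adipocyte sum was 7640 and 7723 CPM against 13590 to 19540 CPM, with all 8 markers below 0 and none passing. The 7 fibroblast markers were all below 0 as well (median -0.89) and none passed. Hepatocyte markers differed most, with a sum over 6 genes of 129.7 and 134.6 CPM in Mr1-/- against 1.14 to 2.48 CPM in Mr1+/+, a median log2 fold change of 6.36 over 5 tested genes, and 1 called higher. In the PBS libraries they summed to 0.563, 0.303 and 145 CPM in Mr1+/+, the last in replicate 3, and 78.95 to 129 CPM in Mr1-/-. Pancreatic acinar transcripts summed to 4418 and 4491 CPM in Mr1-/- and 132.6 to 3358 CPM in Mr1+/+ PD fluid. The part of these in the level of the 40 genes was not tested.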

How the data were processed

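RNA of 10 mouse peritoneum libraries was sequenced, and the authors deposited 1 table of raw read counts per gene for them (21899 rows, all with a gene name). Reads were placed on mm10, per the submitters' processing notes, and for the aligner, counter and strand setting the sources used here give no name. Libraries of 1 group with a chi-square per gene under 5 (genes with at least 10 counts in the pair) were summed, leaving 8 samples. Genes were filtered with filterByExpr, scaled by TMM and fitted in 1 edgeR 4.0.16 quasi-likelihood model of 4 group means (R 4.3.3, limma 3.58.1), with Benjamini-Hochberg adjustment over 15385 genes. The procedure was tested on simulated data. DESeq2 1.42.0, RLE scaling, no filter, separate libraries and libraries left out were alternatives. In each role the 3 genes with the smallest and the 1 with the largest p after PD fluid in Mr1+/+ are given by library, and up to 4 called genes with the smallest p are named for each further list. Coordinates, lengths and GC content came from GENCODE M21 (97.0% of symbols matched). The 40 genes, lists and markers were chosen with earlier results of these data known.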

Additional observations from a re-analysis of the deposited data

How the results depend on the processing

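The direction of the median of the 40 genes was kept under every alternative run for PD fluid in Mr1+/+ and in Mr1-/-, for genotype under PD fluid and for the interaction. With 4 residual degrees of freedom, counts of calls were unstable, and the cause was not tested. Fits on the 10 libraries count those of each near-identical pair as separate samples, so their error may be too small. For PD fluid in Mr1+/+, the genes of the list called were 34 with 10 separate libraries and 6 without the summed Mr1+/+ PBS sample (median -0.70). Leaving out 1 library gave 0 to 27, with medians of -1.11 to -0.90. All genes called were 2286, against 5549 with 10 libraries, 3780 in DESeq2 and 0 to 2751 with 1 library left out. For PD fluid in Mr1-/-, 2 genes in all were called with 10 libraries, 3 in DESeq2 and 0 to 1 with 1 library left out, and the median of the list was then -0.36 to -0.04. For genotype under PBS, the 2 genes called in all became 50 with 10 libraries, 212 in DESeq2, 6 with no filter, 0 with only the groups compared, 665 without the summed sample and 1 to 3 with 1 library left out. The median was 0.22 without the summed sample and -0.262 to 0.0933 with 1 library left out.

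For genotype under PD fluid, the list's calls were 20 with 10 libraries, 5 in DESeq2 and 2 with only the groups compared (Cenpa and Top2a). Genes called in all were 2, against 3400, 1031 and 561 in those fits, 7 with no filter, 42 without the summed sample and 0 to 33 with 1 library left out. For the interaction, the list's calls were 9 with 10 libraries and 1 in DESeq2, and genes called in all were 1490, 472, 311 without the summed sample and 0 to 1 with 1 library left out. A fit of only the groups compared is not defined for the interaction, which needs all 4. Pcna changed sign without the summed sample (0.0564). E2f1 changed sign with 10 libraries (-0.0202) and ranged from -0.16 to 0.22 with 1 library left out.

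Replicate numbers occur in every group. The labels do not say that a number marks a shared animal, litter or batch, so the numbers were not taken to pair the samples. Deviations of same-numbered libraries from their group means correlated between -0.156 and 0.174. For Mr1+/+ PBS with PD fluid the correlations were 0.127, -0.108 and 0.098. In a group of 2 libraries the deviations mirror each other, and near-identical libraries hold little else, so these values cannot decide on pairing. With the replicate block on 10 libraries, the list's calls were 33 for PD fluid in Mr1+/+, 14 for genotype under PD fluid and 10 for the interaction, genes called in all were 5537, 2428 and 1915, and E2f1 was at -0.0339.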
